A study of Mus musculus with 16 samples.

Results

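Myoblasts sorted for GFP (GFP+ myoblasts) were compared with unsorted (bulk) myoblasts from the same reporter genotype. The 6 libraries were taken by their labels alone, 3 of GFP+ myoblasts and 3 of bulk myoblasts, out of 16 libraries in the series. All were primary cultures of mouse skeletal muscle with the genotype Pax7-nGFP, in which a nuclear GFP reports the gene Pax7, and the parental lines came from males aged 16 weeks. GFP+ myoblasts were harvested at passage 5 to 6, when 300000 to 500000 GFP+ cells were sorted straight into lysis buffer, and their RNA was prepared with a micro column kit. Bulk myoblasts were harvested at passage 3 without sorting, and their RNA was prepared with a mini column kit. Both were grown in a DMEM and F10 mixture with 10% horse serum, 20% fetal bovine serum and 10 ng/ml basic FGF. Sorting, passage and RNA kit therefore changed together between the groups, and their parts in any difference cannot be told apart.

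Further groups of 3 libraries each gave reference levels or the test of a second sort, all from Pax7-nGFP cultures of males aged 16 weeks. Cultures that the labels call MPC, an abbreviation they do not spell out, were made from myoblasts by growth for 5 to 6 passages in another medium. It held forskolin and RepSox at 5 µM each, a compound given as CHIR9901 at 3 µM, 10% fetal bovine serum, a serum replacement and 10 ng/ml basic FGF. They were sequenced after sorting for GFP (GFP+ MPC) and unsorted (bulk MPC). Differentiated myoblasts had spent 3 days in 2% horse serum without added FGF and were harvested at passage 4 to 5. The labels call the replicates biological but do not say which animal each came from, so p-values measure the spread between these libraries.

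Pax7 encodes a paired-box transcription factor found in muscle stem cells and in much of a proliferating myoblast culture. Myoblasts divide while they hold Pax7, Myf5 and MyoD. A cell that commits leaves the cell cycle with the help of CDK inhibitors such as p21, turns on myogenin and the MEF2 factors, and then fuses and builds sarcomeres. A dish of myoblasts kept in growth medium usually holds some cells that have already started along this path, and Pax7 is lost as they do so. A gate on a Pax7 reporter thus selects on a gene that belongs to the program itself, and the level of Pax7 is close to the sort criterion.

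Each of the 6 libraries held 19300000 to 29130000 estimated counts, summed from transcripts to genes. Levels are given as CPM, a gene's counts relative to its library's total, scaled with TMM factors, which were 1.10 to 1.15 in GFP+ myoblasts and 1.04 to 1.07 in bulk myoblasts. The first principal component of the 6 libraries held 75.8% of the variance and separated the groups, with GFP+ myoblasts at -56.7, -58.5 and -85.7 and bulk myoblasts at 67.9, 49.6 and 83.4. The second held 12.1% and set GFP+ replicate 3, at -50.3, apart from GFP+ replicates 1 and 2, at 30.7 and 28.6. In GFP+ replicate 3, 1758 genes lay at least 2-fold from the other GFP+ libraries, against 658 and 778 in the others, and it had the highest summed levels of replication and of mitosis genes of the 6 libraries. For some of the genes and lists that rest on it, values without it are also given.

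Of 15533 genes tested, 4667 (30.0%) differed between GFP+ and bulk myoblasts at an adjusted p under 0.05 in edgeR's quasi-likelihood test. Of these, 1966 (12.7% of those tested) were higher and 2701 (17.4%) were lower in GFP+ myoblasts. The sizes were unequal: at least 2-fold were 285 of the rises and 1728 of the falls, and at least 8-fold were 1 rise and 688 falls. The median log2 fold change was 0.58 among the rises and -1.49 among the falls, and -0.02 over all genes tested. Scaling by library totals alone, which moved that median to 0.09, raised the share of rises among the called genes to 56.9%, against 42.1% here. Without bulk replicate 3 the count of called genes was 2719 and that of rises 828, and the rises numbered 1089 without GFP+ replicate 3 and 1106 without bulk replicate 1. The 688 genes that fell at least 8-fold made up 0.25%, 0.22% and 0.175% of the GFP+ libraries, against 6.92%, 4.79% and 7.37% of the bulk libraries. In whole cultures a lower level can come from fewer cells of a type or from less RNA per cell, and these data do not separate them.

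**Figure D1:**
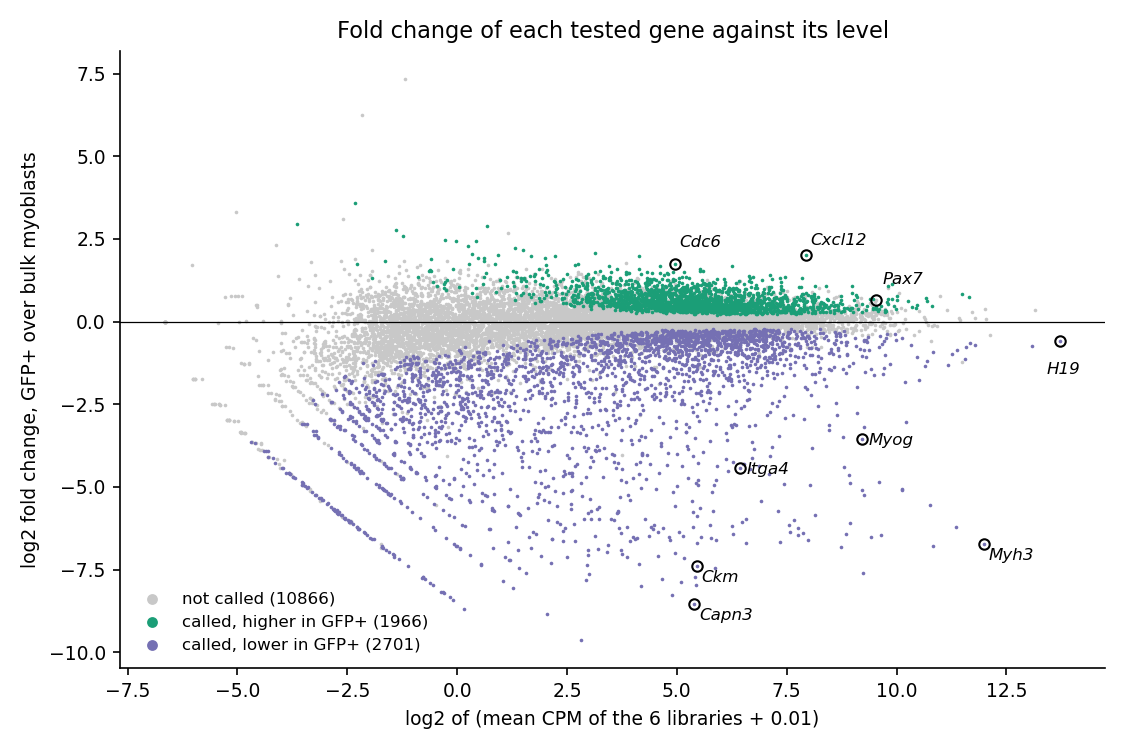
Each point is a tested gene, with its log2 fold change of GFP+ over bulk myoblasts (vertical) against the log2 of its mean CPM over the 6 libraries plus 0.01 (horizontal). The 2701 falls reach far below the 1966 rises in size, and the diagonal lines at low levels are genes with few or no counts in GFP+ myoblasts.

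Of 3 factors that mark the myoblast state, Myf5 rose in the sorted cells, and Pax7 and Myod1 did not pass the test. Pax7 had 867, 824 and 1000 CPM in GFP+ myoblasts, against 546, 654 and 525 CPM in bulk myoblasts. All 3 sorted libraries lay above all bulk libraries, with a log2 change of 0.64 ± 0.33 (standard error, as with every such error here) that did not pass the threshold (adjusted p = 0.159). It did pass in a fit of the 6 libraries alone, where the other groups do not add to the spread (adjusted p = 0.00942, with values between 0.00942 and 0.329 over 15 alternatives). After 3 days of differentiation Pax7 averaged 45.2 ± 19.7 CPM (SD, n = 3). Myf5, a sister factor of MyoD that acts early in the lineage, had 60.9, 56.9 and 85.8 CPM in GFP+ myoblasts, against 35.2, 28.5 and 26.8 CPM in bulk myoblasts. The groups did not overlap and the rise of 1.17 ± 0.27 passed (adjusted p = 0.00589). Myod1, which encodes the myogenic master factor MyoD, had 890, 953 and 895 CPM in GFP+ myoblasts and 673, 819 and 687 CPM in bulk myoblasts, a change of 0.33 ± 0.27 that did not pass (adjusted p = 0.375). Its levels in the sorted libraries were all above those in the bulk libraries, by small margins.

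Of 28 muscle stem cell markers, 2 rose and 7 fell, against 12.7% and 17.4% of all genes, and the list median was -0.19, against -0.02 over all genes. The rises were Myf5 and Met, the receptor for hepatocyte growth factor, which had 206, 228 and 450 CPM in GFP+ myoblasts and 157, 145 and 126 CPM in bulk myoblasts. The rise of Met (1.05 ± 0.30) was carried by GFP+ replicate 3 and came to 0.61 without it, no longer past the threshold, nor was it at 0.97 without bulk replicate 3, so that 1 marker rose in either of those fits. Ncam1, a cell adhesion molecule, fell to 582, 517 and 282 CPM in GFP+ myoblasts, against 1220, 1190 and 1210 CPM in bulk myoblasts (log2 change -1.39 ± 0.20). Dag1, which encodes dystroglycan, fell by 1.46 ± 0.21, and Spry1, a feedback inhibitor of FGF signalling linked to stem cell quiescence, fell by 2.19 ± 0.35. Spry1 was at 4.81, 7.28 and 12 CPM in GFP+ myoblasts and at 32.1, 23.0 and 53.9 CPM in bulk myoblasts. Calcr, the calcitonin receptor of quiescent satellite cells, had 0 counts in all 6 libraries. Of 17 tested Notch pathway genes 0 passed in edgeR, with 1 at an unadjusted p under 0.05 and 0 in DESeq2, and their median was -0.02.

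**Figure D2:**
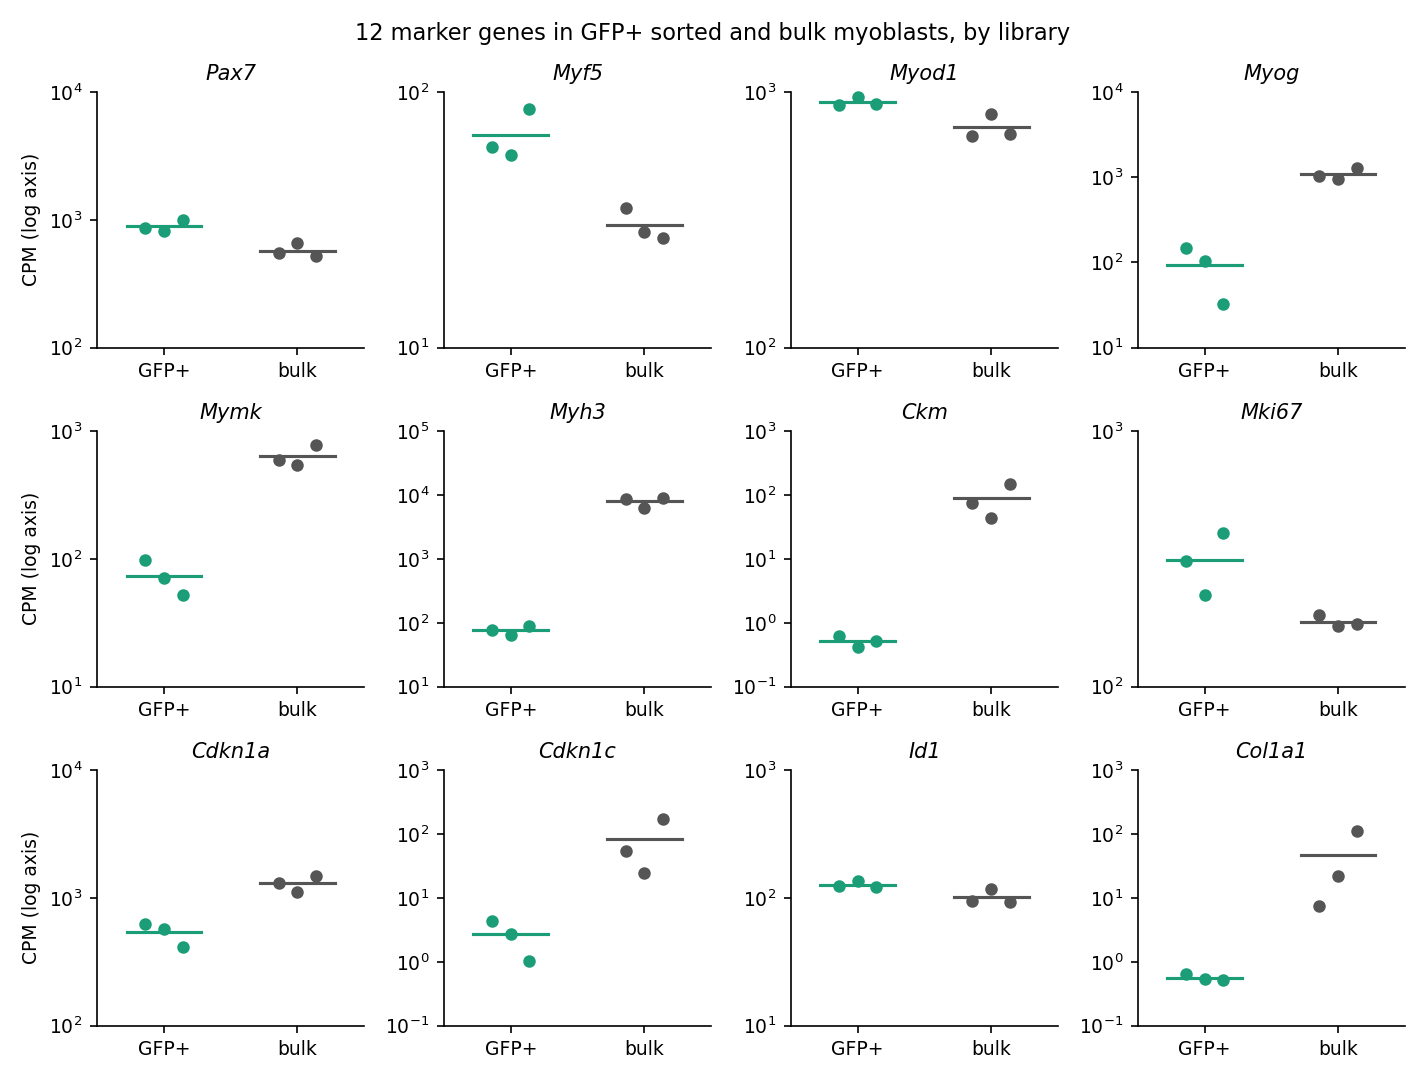
CPM of 12 marker genes (log axis, a different range in each panel) in the 3 GFP+ libraries (left, green) and the 3 bulk libraries (right, grey), with the mean as a line. Myog, Mymk, Myh3, Ckm, Cdkn1a, Cdkn1c and Col1a1 lie lower in every GFP+ library, Myf5 lies higher, and Pax7, Myod1, Mki67 and Id1 lie higher by less.

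Several regulators of commitment were much lower in the sorted cells. Myog, which encodes myogenin, had 148, 103 and 32.5 CPM in GFP+ myoblasts, against 1040, 963 and 1280 CPM in bulk myoblasts. The sorted libraries held 8.60% of the bulk mean and never overlapped it (-3.54 ± 0.47, adjusted p = 0.000109). Mef2c, a MEF2 factor that drives late muscle genes, had 11, 7.54 and 10.9 CPM in GFP+ myoblasts and 603, 373 and 705 CPM in bulk myoblasts (-5.84 ± 0.33, adjusted p = 5.84e-08). Mef2a, its broadly expressed relative, fell by 1.55 ± 0.16, and Myf6, which encodes the late factor MRF4, fell by 4.39 ± 0.48. In all, 5 of 15 regulatory factors and partners fell (33.3%, against 17.4% of all genes) and 3 rose (20.0%, against 12.7%). The list median was -0.055, against -0.02 over all genes. Tcf3, which encodes the E proteins that pair with MyoD, rose to 210, 205 and 233 CPM in GFP+ myoblasts, against 125, 133 and 127 CPM in bulk myoblasts (0.75 ± 0.10). Without bulk replicate 3, 1 of the 3 rises passed. Differentiated myoblasts averaged 994 ± 29.2 CPM of Myog beside the 1097 ± 165 CPM of bulk myoblasts, and 1917 ± 134 CPM of Mef2c beside the 560 ± 170 CPM of bulk myoblasts (SD, n = 3 each). Because the bulk libraries serve in both comparisons, these levels are only set side by side.

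The muscle-specific fusion genes were lower in the sorted cells. Mymk, which encodes myomaker, had 97.0, 70.2 and 52.1 CPM in GFP+ myoblasts, against 597, 538 and 772 CPM in bulk myoblasts (-3.12 ± 0.29, adjusted p = 4.53e-06). Mymx, which encodes its partner myomixer, had 4.19, 4.22 and 2.93 CPM in GFP+ myoblasts and 46.4, 46.3 and 89.4 CPM in bulk myoblasts (-3.99 ± 0.52). For both, every sorted library lay below every bulk library. Tmem182, a muscle membrane protein linked to fusion, showed the largest fall of the list, -5.17 ± 0.21. Of 24 tested fusion genes 8 fell (33.3%, against 17.4% of all genes) and 16 did not pass, with a median of -0.26. As rises 0 passed in edgeR, with 2 at an unadjusted p under 0.05, and 2 passed in DESeq2. The list also holds adhesion and cytoskeletal genes with wider roles.

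The thick filament genes had the lowest median of the 42 lists, -6.41. Of 19 tested members 18 fell, against 17.4% of all genes, and 1 did not pass. Myh3, the embryonic myosin heavy chain of newly formed myotubes, had 77.7, 63.4 and 89.1 CPM in GFP+ myoblasts, against 8680, 6340 and 9100 CPM in bulk myoblasts. The sorted mean was 0.954% of the bulk mean (-6.71 ± 0.36, adjusted p = 4.4e-08). Myh8, the perinatal myosin, had 5.00, 3.92 and 9.84 CPM in GFP+ myoblasts and 1240, 582 and 1790 CPM in bulk myoblasts (-7.60 ± 0.54). Myh1, an adult fast myosin, had 25.2, 22.6 and 50.2 CPM in GFP+ myoblasts and 4350, 2640 and 3890 CPM in bulk myoblasts (-6.80 ± 0.48). The myosin heavy chain genes lie side by side on chromosome 11 and are much alike in sequence, so the share of reads given to each is an estimate of the quantifier. Mybpc2, which encodes fast myosin-binding protein C, had 0 counts in the GFP+ libraries and 94 in the bulk libraries, at least 31.6-fold lower in GFP+ myoblasts if 3 counts over the group are taken as the limit. The exception was Mylk4, a muscle myosin light chain kinase, with 83.9, 67.4 and 50.3 CPM in GFP+ myoblasts and 93.3, 65.3 and 64.7 CPM in bulk myoblasts (adjusted p = 0.843). Summed over the list, the sorted libraries held 438, 388 and 465 CPM, against 22690, 15620 and 24180 CPM in bulk myoblasts.

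Of 20 thin filament genes 17 fell (85.0%, against 17.4% of all genes) and 1 rose (5.0%, against 12.7%), with a median of -4.49. Acta1, skeletal muscle alpha-actin, had 77.0, 59.0 and 74.9 CPM in GFP+ myoblasts, against 5440, 4300 and 5790 CPM in bulk myoblasts (-6.20 ± 0.33). Actc1, the cardiac alpha-actin that embryonic skeletal muscle also uses, had 95.5, 80.3 and 40.7 CPM in GFP+ myoblasts and 3340, 2630 and 4240 CPM in bulk myoblasts (-5.56 ± 0.47). The groups were far apart for both actins, as they were for Tnnc2, fast troponin C (-6.46 ± 0.43), and Lmod2, a leiomodin that elongates thin filaments (-6.48 ± 0.32). Among tropomyosins, Tpm3, whose products include cytoskeletal forms, rose by 0.66 ± 0.14 (adjusted p = 0.00442), and Tpm1 had 1250, 1320 and 1370 CPM in GFP+ myoblasts and 1580, 1540 and 1680 CPM in bulk myoblasts (adjusted p = 0.473), though it passed in the 6 libraries alone (-0.31). Nebl, which encodes nebulette, had 13.4, 16.6 and 15.8 CPM in GFP+ myoblasts and 11.9, 19 and 7.75 CPM in bulk myoblasts.

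Of 25 Z-disc and M-band genes 23 fell (92.0%, against 17.4% of all genes), with a median of -3.51. Myom2, an M-band protein, had 6.64, 4.79 and 4.87 CPM in GFP+ myoblasts, against 509, 321 and 560 CPM in bulk myoblasts (-6.41 ± 0.28). Tcap, which caps titin at the Z-disc, fell by 7.08 ± 0.34, and Myoz2, the Z-disc protein calsarcin, fell by 7.33 ± 0.65. The members that did not pass were Ankrd1, a stretch-responsive titin partner with 812, 935 and 933 CPM in GFP+ myoblasts and 1030, 1100 and 739 CPM in bulk myoblasts, and Fhl3, a LIM protein, with 44.0, 43.2 and 43.6 CPM in GFP+ myoblasts and 41.1, 35.5 and 45.7 CPM in bulk myoblasts.

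Sequence before the start of such genes is shown for the falls and, further on, for the rises, because the factors described so far bind known short motifs. Promoters were taken from RefSeq for GRCm38.p6, and 11378 of the 15533 tested genes matched by symbol. MyoD and myogenin bind E-boxes, of which CAGCTG reads the same on both strands, and MEF2 factors bind an AT-rich motif that was searched under that name on both strands. In windows from 250 bases before to 50 after the start, CAGCTG was found in 28.8% of 486 genes that fell at least 8-fold, in 18.7% of the tested genes and in 18.3% of all 27025 genes with a promoter. The MEF2 motif was found in 10.1% of the 486, in 2.46% of tested genes and in 3.70% of all promoters. A match is only a description of the letters. The 250 bases before the start of 3 genes of the list that hold a match are printed here 5′ to 3′ with the matches in capitals. They are Myh4, an adult fast myosin (chr11:67237562-67237811, + strand, MEF2 match beginning 182 bases and CAGCTG 67 bases before the start), Myoz2 (chr3:123034988-123035237, - strand, MEF2 at 33 and CAGCTG at 12 bases) and Mylpf, the fast regulatory light chain (chr7:127211358-127211607, + strand, CAGCTG at 51 bases).
Myh4: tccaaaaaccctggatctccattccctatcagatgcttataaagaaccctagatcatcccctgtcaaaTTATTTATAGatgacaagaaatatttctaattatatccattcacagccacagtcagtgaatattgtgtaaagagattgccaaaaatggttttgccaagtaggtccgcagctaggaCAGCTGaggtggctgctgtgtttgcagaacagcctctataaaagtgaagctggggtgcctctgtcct
Myoz2: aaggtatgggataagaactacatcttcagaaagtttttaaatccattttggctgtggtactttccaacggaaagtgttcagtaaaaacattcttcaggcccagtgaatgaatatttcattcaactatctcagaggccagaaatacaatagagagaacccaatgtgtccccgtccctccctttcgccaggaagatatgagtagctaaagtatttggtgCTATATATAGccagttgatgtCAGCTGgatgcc
Mylpf: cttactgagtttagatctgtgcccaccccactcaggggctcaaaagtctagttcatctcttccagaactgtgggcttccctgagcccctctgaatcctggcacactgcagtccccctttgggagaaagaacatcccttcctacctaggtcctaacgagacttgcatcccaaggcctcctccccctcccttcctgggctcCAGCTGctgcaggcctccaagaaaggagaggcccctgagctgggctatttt

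These 3 genes fell steeply. Myh4 had 0.155, 0.0377 and 0.757 CPM in GFP+ myoblasts, against 66.9, 19.1 and 117 CPM in bulk myoblasts (-7.88 ± 1.01, -9.30 without GFP+ replicate 3 and -7.23 without bulk replicate 3). Myoz2 had 0.248, 0.189 and 0.189 CPM in GFP+ myoblasts, against 37.6, 20.8 and 46.7 CPM in bulk myoblasts. Mylpf had 66.1, 72.1 and 55.8 CPM in GFP+ myoblasts, against 2310, 1860 and 2350 CPM in bulk myoblasts (-5.07 ± 0.35). In none of the 3 did a sorted library come near a bulk library.

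Membrane and calcium handling genes fell as well. Of 24 excitation-contraction coupling genes 22 fell (91.7%, against 17.4% of all genes) and 2 did not pass, with a median of -3.10. Casq2, a calsequestrin that stores calcium in the sarcoplasmic reticulum, had 6.86, 5.32 and 10.1 CPM in GFP+ myoblasts, against 916, 649 and 954 CPM in bulk myoblasts (-6.83 ± 0.27, adjusted p = 7.84e-09). Scn4a, the skeletal muscle sodium channel, fell by 6.70 ± 0.42, and Casq1 fell by 6.67 ± 0.48. Sln, which encodes the calcium pump inhibitor sarcolipin, had 0.124, 0 and 0 CPM in GFP+ myoblasts and 9.72, 5.00 and 11.4 CPM in bulk myoblasts. Its fitted change of -7.32 became -10.61 without GFP+ replicate 1, the only sorted library with any count. Jph2, a junctophilin, had 374, 405 and 292 CPM in GFP+ myoblasts and 443, 409 and 443 CPM in bulk myoblasts (adjusted p = 0.167), and Asph, which has forms outside muscle, had 116, 111 and 139 CPM in GFP+ myoblasts and 136, 124 and 114 CPM in bulk myoblasts (adjusted p = 0.911), but passed as lower with length-scaled counts (-0.48, adjusted p = 0.0366, with values between 0.0366 and 1 over 15 alternatives).

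Of 20 muscle energy and creatine genes 17 fell (85.0%, against 17.4% of all genes) and 1 rose (5.0%, against 12.7%), with a median of -3.01. Ckm, the muscle creatine kinase, had 0.621, 0.415 and 0.520 CPM in GFP+ myoblasts, against 74.0, 44.2 and 146 CPM in bulk myoblasts (-7.38 ± 0.65, adjusted p = 2.76e-06). Mb, which encodes myoglobin, had 1.55, 1.02 and 3.03 CPM in GFP+ myoblasts and 232, 126 and 205 CPM in bulk myoblasts (-6.69 ± 0.45). Every sorted library lay far below every bulk library for both. Ckm averaged 765 ± 119 CPM in differentiated myoblasts (SD, n = 3). The rise was Amd1, an enzyme of polyamine synthesis (0.66 ± 0.16), which did not pass with length-scaled counts.

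The genes of the acetylcholine receptor and its synapse changed by unequal amounts. Chrng, the fetal gamma subunit, had 124, 174 and 121 CPM in GFP+ myoblasts, against 525, 490 and 586 CPM in bulk myoblasts (-1.94 ± 0.25, adjusted p = 8.98e-05). Chrne, the adult epsilon subunit, had 1 count in GFP+ libraries and 117 in bulk libraries, a bulk over GFP+ ratio of 118 (95% counting interval 20.7 to 4690). Chrna1, the alpha subunit shared by both receptors, had 1380, 1600 and 1240 CPM in GFP+ myoblasts and 2150, 2220 and 2000 CPM in bulk myoblasts (-0.59 ± 0.23, adjusted p = 0.0652, with values between 0.0124 and 0.189 over 15 alternatives). Rapsn, which encodes the clustering protein rapsyn, had 89.1, 91.2 and 65.2 CPM in GFP+ myoblasts and 89.4, 98.9 and 97.1 CPM in bulk myoblasts (adjusted p = 0.443). Of 13 tested genes 9 fell (69.2%, against 17.4% of all genes), among them Ache, acetylcholinesterase (-3.72 ± 0.38), and Colq, which anchors it (-3.75 ± 0.34).

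Across all genes, the 8 largest falls of protein-coding genes with at least 10 CPM in bulk myoblasts included several known from muscle. Capn3, the muscle calpain, had 0.404, 0.0377 and 0.189 CPM in GFP+ myoblasts, against 78.4, 55.8 and 119 CPM in bulk myoblasts (-8.53 ± 0.52, or -9.57 without GFP+ replicate 1). Xirp2, an actin-binding protein of the intercalated disc and sarcomere, had 0.217, 0.113 and 0.236 CPM in GFP+ myoblasts, against 80.9, 49.2 and 47.4 CPM in bulk myoblasts (-8.26 ± 0.50). No sorted library reached 1 CPM of either gene. The others were Dhrs7c, Rap1gap2, Myh4, Adprhl1, Bex1 and Cmya5, with log2 changes from -7.74 to -7.99. Rap1gap2 was at 0.869 CPM in GFP+ replicate 1 and at 0 in GFP+ replicates 2 and 3, and its change was -13.92 without GFP+ replicate 1. Without GFP+ replicate 1 that of Dhrs7c was -9.04, and without GFP+ replicate 2 that of Bex1 was -8.75. Without GFP+ replicate 3 that of Adprhl1 was -8.60.

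**Figure D3:**
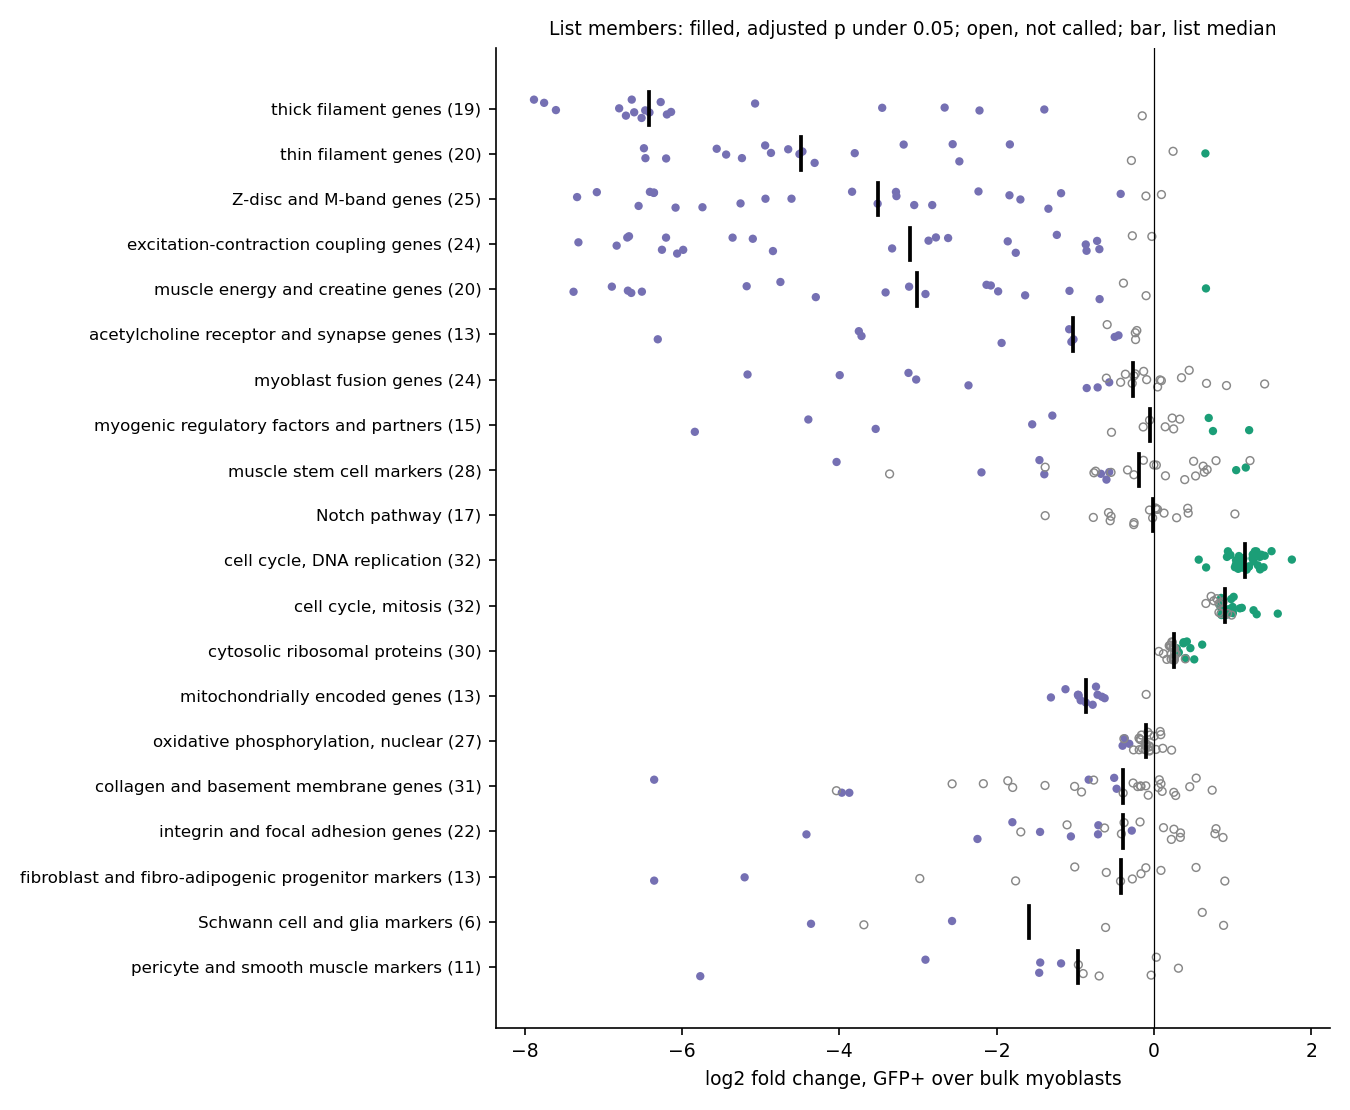
Log2 fold change (GFP+ over bulk myoblasts) of every tested member of 20 gene lists, with filled points for genes at an adjusted p under 0.05, open points for the others and a black bar at the list median. Sarcomere lists reach to -7.88, the cell cycle lists lie wholly above 0, and the stem cell and Notch lists sit around 0.

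Genes of DNA replication rose in the sorted cells. Their summed level was 3648, 3232 and 4750 CPM in GFP+ myoblasts, against 1859, 1990 and 1487 CPM in bulk myoblasts, highest in GFP+ replicate 3. All 32 DNA replication genes of the list rose, against 12.7% of all genes, with a median of 1.16 and a range from 0.57 for Ccne1 to 1.75 for Cdc6. Cdc6, which loads the replicative helicase onto origins, had 41.6, 33.3 and 69.4 CPM in GFP+ myoblasts, against 14.7, 14.9 and 13.2 CPM in bulk myoblasts (1.75 ± 0.39, adjusted p = 0.00522, or 1.40 without GFP+ replicate 3). Mcm2, a subunit of that helicase, had 143, 132 and 327 CPM in GFP+ myoblasts and 80.5, 77.7 and 68.6 CPM in bulk myoblasts (1.41 ± 0.30, or 0.87 to 1.64 over 15 alternatives). Mcm10, a replication initiation factor, rose by 1.5 ± 0.29, and Prim1, a primase subunit, rose by 1.39 ± 0.34. In all 32 genes each GFP+ library lay above each bulk library, which held in the same direction for 25.3% of all genes. Without bulk replicate 3, 21 of the 32 passed.

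Of 32 mitosis genes 21 rose (65.6%, against 12.7% of all genes) and 11 did not pass, with a median of 0.91. All 32 had each GFP+ library above each bulk library, against 25.3% of all genes. Mybl2, a B-Myb factor of the G2 program, had 56.1, 52.0 and 100 CPM in GFP+ myoblasts, against 23.6, 26.2 and 20.1 CPM in bulk myoblasts (1.58 ± 0.32, adjusted p = 0.00263). Birc5, which encodes survivin, rose by 1.12 ± 0.27. Foxm1, another activator of mitotic genes, had 110, 93.8 and 233 CPM in GFP+ myoblasts and 58.0, 59.8 and 58.6 CPM in bulk myoblasts (1.31 ± 0.36). Foxm1 did not pass without GFP+ replicate 3 (0.80) or bulk replicate 3 (1.31). Aurkb, a mitotic kinase, rose by 1.27 ± 0.38 but did not pass without GFP+ replicate 3 (1.01) or without any one bulk library (1.25 to 1.29). Mki67, which encodes the proliferation marker Ki-67, had 311, 229 and 398 CPM in GFP+ myoblasts and 191, 172 and 175 CPM in bulk myoblasts. The groups did not overlap, and the change of 0.80 ± 0.38 did not pass (adjusted p = 0.127). It passed in the 6 libraries alone (adjusted p = 0.0208) and without bulk MPC replicate 2 (0.0443), within a range of 0.0208 to 0.335 over 15 alternatives. The count of 21 mitosis genes depended on single libraries: it was 32 without bulk MPC replicate 2, which is in neither compared group but enters the shared spread and the filter on low counts (15828 genes tested), 5 without GFP+ replicate 3, and 8, 12 and 4 without bulk replicates 1, 2 and 3.

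**Figure D4:**
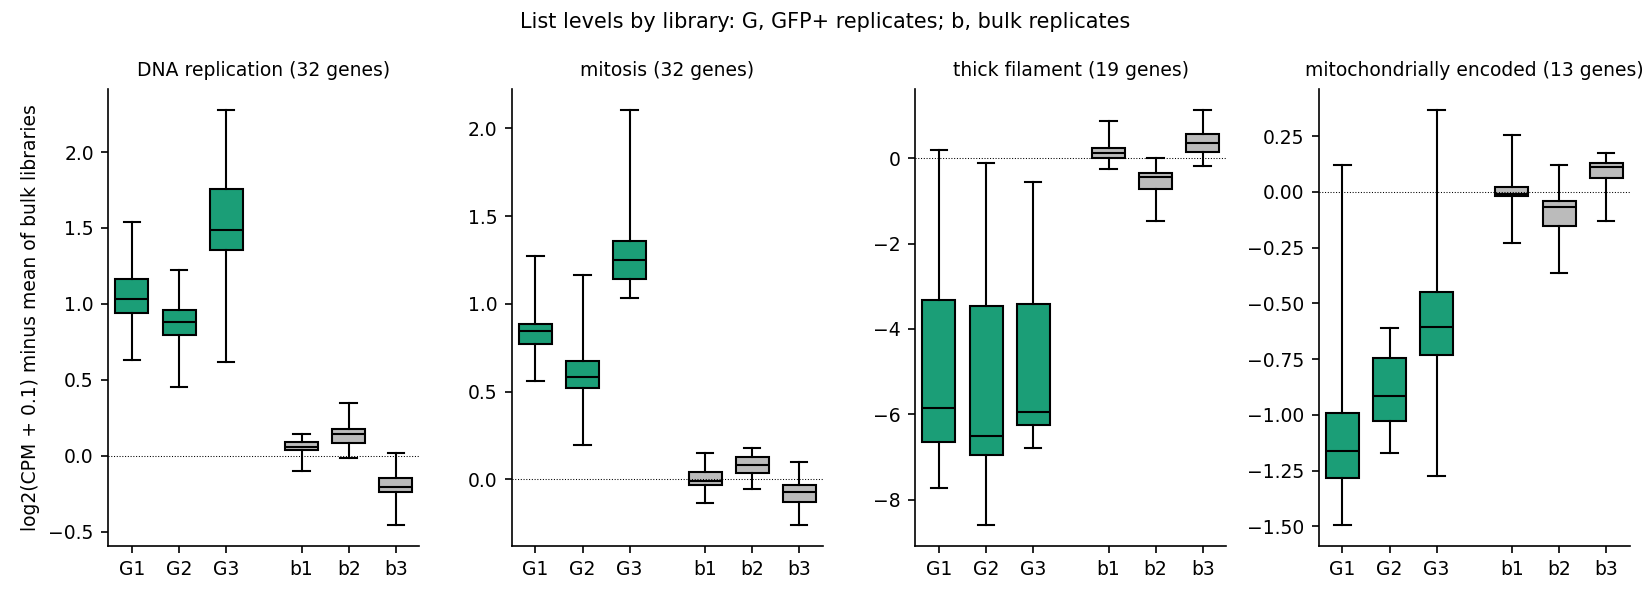
Level of 4 gene lists in each library as log2(CPM + 0.1) minus the mean of the bulk libraries, with boxes for quartiles, a line at the median and whiskers to the extremes of the members (G1 to G3, GFP+ replicates, green; b1 to b3, bulk replicates, grey). The DNA replication median stands at 1.03, 0.88 and 1.49 in GFP+ myoblasts, against 0.06, 0.14 and -0.20 in bulk myoblasts, and the thick filament median at -5.85, -6.50 and -5.96, against 0.12, -0.43 and 0.36.

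Replication genes are known targets of E2F factors, and mitotic genes of the complexes that bind the cell cycle gene homology region (CHR) TTTGAA together with CCAAT boxes. E2F sites were searched as TTTCCCGC, TTTGGCGC, TTTCGCGC and TTTGCCGC on both strands, in the same 300 base windows. They were found in 42.3% of the 26 replication genes with a promoter, in 3.70% of the 27 mitosis genes, in 4.41% of tested genes and in 2.60% of all promoters. TTTGAA on either strand was found in 74.1% of the mitosis genes, in 11.5% of the replication genes, in 14.6% of tested genes and in 20.2% of all promoters. CCAAT on either strand was in 77.8% of the mitosis genes, 57.7% of the replication genes, 42.6% of tested genes and 41.1% of all promoters. The 250 bases before the start are printed for Cdc6 (chr11:98907901-98908150, + strand, E2F match at 138 bases before the start) and Cdca7 (chr2:72475969-72476218, + strand, at 71 bases), both among the 8 largest rises of protein-coding genes with at least 10 CPM in GFP+ myoblasts, with matches to any of these motifs in capitals. They are also printed for Cdk1, the mitotic kinase (chr10:69352913-69353162, - strand), with TTTGAA at 71 and 15 bases, CCAAT boxes at 208, 80 and 48 bases and an E2F match, TTTCGCGC, at 131 bases.
Cdc6: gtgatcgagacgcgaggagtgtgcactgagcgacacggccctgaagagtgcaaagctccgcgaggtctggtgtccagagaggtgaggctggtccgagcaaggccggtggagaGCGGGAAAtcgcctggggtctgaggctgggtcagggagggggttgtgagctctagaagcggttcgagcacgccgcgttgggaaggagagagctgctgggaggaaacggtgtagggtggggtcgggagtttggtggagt
Cdca7: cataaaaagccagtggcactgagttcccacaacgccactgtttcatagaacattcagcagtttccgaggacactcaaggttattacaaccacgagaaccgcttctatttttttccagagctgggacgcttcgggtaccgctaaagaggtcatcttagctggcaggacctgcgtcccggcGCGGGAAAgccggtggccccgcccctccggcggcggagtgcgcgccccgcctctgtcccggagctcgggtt
Cdk1: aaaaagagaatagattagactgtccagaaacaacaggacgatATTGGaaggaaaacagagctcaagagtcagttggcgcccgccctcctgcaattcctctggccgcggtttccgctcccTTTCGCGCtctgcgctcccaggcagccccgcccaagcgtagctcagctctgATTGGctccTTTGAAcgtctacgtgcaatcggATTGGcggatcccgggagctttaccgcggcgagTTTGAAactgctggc

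Cdca7, a chromatin protein of cycling cells, had 29.5, 29.1 and 53.8 CPM in GFP+ myoblasts, against 12.2, 13.1 and 9.60 CPM in bulk myoblasts (1.69 ± 0.35). Cdk1 was chosen for its promoter after its values were seen. It had the largest rise among called mitosis genes whose printed bases hold both TTTGAA and CCAAT, so the choice fixed the presence of these motifs. Its levels were 139, 117 and 186 CPM in GFP+ myoblasts, against 71.0, 80.1 and 67.8 CPM in bulk myoblasts (1.01 ± 0.30). For Cdca7 and Cdk1 each sorted library lay above each bulk library.

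Some inhibitors of the cycle fell. Cdkn1a, which encodes p21, had 620, 574 and 414 CPM in GFP+ myoblasts, against 1310, 1110 and 1490 CPM in bulk myoblasts (-1.28 ± 0.23, adjusted p = 0.00112). Cdkn1c, which encodes p57 from an imprinted locus, had 4.41, 2.75 and 1.04 CPM in GFP+ myoblasts, against 54.3, 24.5 and 172 CPM in bulk myoblasts. It was lower in every sorted library, by 4.89 ± 0.67 on the log2 scale or by 3.81 without bulk replicate 3, where its level was highest. Rb1, the retinoblastoma gene, fell by 1.09 ± 0.18, whereas its relative Rbl1, which encodes p107 and is itself an E2F target, rose by 1.20 ± 0.25. Cdk4, the kinase that p16 family proteins hold back, rose by 0.68 ± 0.14. Of 15 genes in that list 2 rose (13.3%, near the 12.7% of all genes) and 4 fell (26.7%, against 17.4%).

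Of 25 p53 targets 3 rose (12%) and 4 fell (16%), shares near those of all genes (12.7% and 17.4%), with a median of 0.39. Gadd45a, a stress-induced growth arrest gene, had 31.7, 31.5 and 35.3 CPM in GFP+ myoblasts, against 174, 162 and 162 CPM in bulk myoblasts (-2.34 ± 0.16, adjusted p = 2.52e-07). Mdm2, which encodes the ubiquitin ligase of p53, had 340, 340 and 290 CPM in GFP+ myoblasts and 190, 206 and 156 CPM in bulk myoblasts (0.81 ± 0.21, or 0.70 and not past the threshold without bulk replicate 3). Zmat3, an RNA-binding p53 target, rose by 0.74 ± 0.26, and Eda2r, a TNF receptor family member, fell by 0.77 ± 0.28. Zmat3 and Eda2r did not pass without any single library of the 6, except Eda2r without GFP+ replicate 1, and Zmat3 changed by 0.62 to 0.84 and Eda2r by -0.81 to -0.59 in the fits that failed. Eda2r also did not pass with RLE factors, library totals, no filter or length-scaled counts, or without bulk MPC replicate 2 (-0.77 to -0.58). The count of rises was 1 without bulk replicate 3, and the count of falls was 2 without GFP+ replicate 2 or bulk replicate 3.

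Among protein-coding genes with a mean of at least 10 CPM in GFP+ myoblasts, the 8 largest rises had mixed roles. Cxcl12, a chemokine that guides CXCR4-bearing cells, had 228, 294 and 659 CPM in GFP+ myoblasts, against 101, 139 and 53.5 CPM in bulk myoblasts (2.01 ± 0.40, or 1.42 without GFP+ replicate 3). It averaged 1.74 ± 0.74 CPM in differentiated myoblasts (SD, n = 3). Mndal, an interferon-inducible gene of the Ifi200 family, had 10.8, 11.8 and 19.9 CPM in GFP+ myoblasts and 2.80, 6.85 and 0.605 CPM in bulk myoblasts. Its rise of 2.07 ± 0.63 did not pass without GFP+ replicate 3 (1.75), bulk replicate 1 (1.94) or bulk replicate 3 (1.56), in the 6 libraries alone (2.05) or with length-scaled counts (1.94), and was 3.05 without bulk replicate 2. The remaining genes were Fam131b (1.98 ± 0.40), Rasl11a, a Ras-like protein (1.73 ± 0.37), Fhdc1, a formin (1.69 ± 0.42), and Atoh8, a bHLH factor (1.67 ± 0.37), besides Cdc6 and Cdca7. Atoh8 had 79.8, 81.1 and 186 CPM in GFP+ myoblasts and 34.6, 47.2 and 27.2 CPM in bulk myoblasts. Its rise was 1.15 without GFP+ replicate 3.

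By mean CPM, the 8 largest gains were those of Actb, Actg1, Ftl1, Hmga1, Pabpc1, Ptma, Rplp0 and Rps2. Actb, cytoplasmic beta-actin, had 3450, 3540 and 4100 CPM in GFP+ myoblasts, against 2120, 2300 and 1750 CPM in bulk myoblasts (0.85 ± 0.21, or 0.74 and not past the threshold without bulk replicate 3). Actg1, cytoplasmic gamma-actin, rose by 0.73 ± 0.23 but did not pass without GFP+ replicates 2 or 3 or bulk replicates 1 or 3 (0.64 to 0.76). Ptma, the abundant nuclear protein prothymosin, had 1160, 1100 and 1680 CPM in GFP+ myoblasts and 644, 647 and 504 CPM in bulk myoblasts (1.13 ± 0.22). Hmga1, a chromatin protein of proliferating cells, had 979, 1080 and 1590 CPM in GFP+ myoblasts and 600, 673 and 456 CPM in bulk myoblasts (1.08 ± 0.23). Ftl1, ferritin light chain, and Pabpc1, the poly(A)-binding protein, rose by 0.71 ± 0.16 and 0.78 ± 0.17. The 30 cytosolic ribosomal protein genes shifted by little, with a median of 0.26, and 29 had each GFP+ library above each bulk library, against 25.3% of all genes. Of them 9 passed (30.0%, against 12.7% of all genes as rises), among them Rps2 (0.61 ± 0.13), Rpsa (0.51 ± 0.12) and Rplp0 (0.46 ± 0.13, or 0.41 and not past the threshold without bulk replicate 3). This count depended on scaling, at 21 with library totals and 20 in DESeq2, and was 5 without GFP+ replicate 3 or bulk replicate 1 and 4 without bulk replicate 3.

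Of 13 genes encoded by the mitochondrial genome 12 fell (92.3%, against 17.4% of all genes), with a median of -0.86. mt-Nd5, a complex I subunit, had 1160, 1450 and 1350 CPM in GFP+ myoblasts, against 3310, 2940 and 3570 CPM in bulk myoblasts (-1.31 ± 0.13, adjusted p = 1.12e-05). mt-Co1, a subunit of cytochrome oxidase, had 5610, 6370 and 7650 CPM in GFP+ myoblasts and 10800, 9680 and 12200 CPM in bulk myoblasts (-0.74 ± 0.18). All the sorted libraries were lower for both. mt-Nd6, the only protein gene on the other strand, had 21.6, 9.5 and 25.7 CPM in GFP+ myoblasts and 23.7, 15.4 and 21.5 CPM in bulk myoblasts (adjusted p = 0.878). Reads of mt-Nd6 and its overlapping neighbours can be told apart only where strand was used in counting, which is not given in the sources used here. Summed, these genes held 18540, 22720 and 26540 CPM in GFP+ myoblasts, against 40180, 37740 and 43650 CPM in bulk myoblasts. The part of the RNA kit in this was not tested. Of 27 nuclear genes of oxidative phosphorylation 3 fell (11.1%, against 17.4% of all genes), with a median of -0.11. The 3 were Cox7b (-0.40 ± 0.10), Uqcrq (-0.37 ± 0.12) and Uqcrc2 (-0.31 ± 0.09), whose changes without a single library ran from -0.47 to -0.26. Uqcrq and Uqcrc2 did not pass with library totals or with no filter (-0.36 to -0.21). Only 1 of the 27 passed without GFP+ replicates 1 or 3 or bulk replicates 1 or 3.

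In glycolysis 6 of 20 genes fell (30.0%, against 17.4% of all genes) and 1 rose (5.0%, against 12.7%). Slc16a3, which encodes the lactate exporter MCT4, had 1.18, 0.867 and 1.56 CPM in GFP+ myoblasts, against 25.1, 10.6 and 31.4 CPM in bulk myoblasts (-4.24 ± 0.58). Aldoa, the muscle aldolase, had 896, 913 and 935 CPM in GFP+ myoblasts and 1960, 1600 and 2220 CPM in bulk myoblasts (-1.08 ± 0.16). Neither gene's groups overlapped. Pdk1, which restrains pyruvate entry into mitochondria, fell by 2.02 ± 0.43, and Pfkp, a phosphofructokinase, by 0.82 ± 0.18. Pgam1, a phosphoglycerate mutase, rose by 0.51 ± 0.14 but not past the threshold without GFP+ replicate 3 (0.42) or bulk replicate 3 (0.48). Cholesterol synthesis showed 1 rise and 1 fall among 24 genes (4.17% each, against 12.7% and 17.4% of all genes). They were Stard4, a sterol carrier (0.83 ± 0.26), and Dhcr7, the last enzyme of the pathway (-0.96 ± 0.22). Without GFP+ replicate 2 there were 2 falls. Stard4 did not pass without GFP+ replicate 3 (0.46), bulk replicate 1 (0.85) or bulk replicate 3 (0.75), in the 6 libraries alone (0.80) or with length-scaled counts (0.70).

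Of 24 genes of the TGF-beta and BMP axis 5 fell (20.8%, near the 17.4% of all genes) and 1 rose (4.17%, against 12.7%). Mstn, which encodes the muscle growth inhibitor myostatin, had 1.58, 1.47 and 0.899 CPM in GFP+ myoblasts, against 51.7, 39.0 and 43.0 CPM in bulk myoblasts (-5.05 ± 0.46, adjusted p = 4.19e-06). Tgfb3, a TGF-beta ligand, had 21, 21 and 18.9 CPM in GFP+ myoblasts and 173, 143 and 224 CPM in bulk myoblasts (-3.15 ± 0.17). The sorted libraries were tightly grouped and well below the bulk libraries for both. Tgfb2 fell by 2.09 ± 0.36. The rise was Bambi, a decoy receptor (1.07 ± 0.36), which failed in each fit without a single library of the 6 except that without GFP+ replicate 3, with changes of 0.80 to 1.24, and did not pass with no filter (1.09) or length-scaled counts (1.08).

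Of 18 YAP-TEAD targets 4 fell (22.2%, against 17.4% of all genes) and 1 rose (5.56%, against 12.7%). Ccn1, an immediate early matrix protein, had 287, 314 and 385 CPM in GFP+ myoblasts and 129, 148 and 118 CPM in bulk myoblasts (1.32 ± 0.26). Ccn2, its relative and also a TGF-beta target, had 3.69, 5.69 and 3.17 CPM in GFP+ myoblasts and 11.2, 16.5 and 29.5 CPM in bulk myoblasts (-2.19 ± 0.38). Tead4, a TEAD factor induced in muscle differentiation, fell by 2.31 ± 0.27. The rises numbered 4 without GFP+ replicate 3 and 2 without bulk replicate 2.

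Wnt genes were low in every library. Of the 21 tested 7 fell (33.3%, against 17.4% of all genes) and 1 rose (4.76%, against 12.7%). Axin2, a feedback target of beta-catenin, had 0.248, 0.302 and 0.236 CPM in GFP+ myoblasts, against 1.56, 1.05 and 3.09 CPM in bulk myoblasts (-2.84 ± 0.39), and averaged 27.2 CPM in differentiated myoblasts. Nkd1, another inhibitor of the pathway, had 1.43, 0.603 and 0.284 CPM in GFP+ myoblasts and 11.2, 10.2 and 12.8 CPM in bulk myoblasts (-3.82 ± 0.56, or -4.63 without GFP+ replicate 1). Wif1, a secreted Wnt inhibitor, was at 0.151 CPM or below in GFP+ myoblasts (-3.01 ± 0.67, -3.60 without GFP+ replicate 2 and -2.34 without bulk replicate 3). Dkk2, another, changed by -4.41 ± 1.41 and did not pass without GFP+ replicates 1, 2 or 3 (-5.08 to -3.97) or bulk replicate 3 (-3.08). Sfrp2, a secreted Frizzled-related protein, rose by 1.70 ± 0.52, but not past the threshold without GFP+ replicates 1 or 2 (1.51 to 1.55) or bulk replicate 3 (1.27), or in the 6 libraries alone (1.68). The FGF and ERK feedback list had 1 rise (5.0%, against 12.7% of all genes) and 2 falls (10.0%, against 17.4%) among 20 genes. The rise was Spred2 (0.61 ± 0.15), and the falls were Spry1 and the ligand Fgf7 (-1.76 ± 0.37).

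Of 22 IGF axis and imprinted growth genes 6 fell (27.3%, against 17.4% of all genes) and 16 did not pass. Igfbp5, an IGF-binding protein of differentiating muscle, had 344, 232 and 658 CPM in GFP+ myoblasts, against 1200, 768 and 1760 CPM in bulk myoblasts (-1.59 ± 0.34). Meg3, an imprinted non-coding RNA, had 16.4, 21.6 and 8.37 CPM in GFP+ myoblasts and 142, 184 and 459 CPM in bulk myoblasts (-4.07 ± 0.87, or -3.39 without bulk replicate 3). H19, the imprinted non-coding RNA next to Igf2, had 12300, 11400 and 8800 CPM in GFP+ myoblasts and 16300, 15400 and 16800 CPM in bulk myoblasts. Its fall of 0.58 ± 0.19 passed (adjusted p = 0.0364) but did not pass with library totals (-0.47), with the replicate number as a block (-0.58) and without GFP+ replicates 2 or 3 or any one bulk library (-0.62 to -0.45). Dlk1, an imprinted transmembrane protein, fell by 2.17 ± 0.62, or by 1.77 without GFP+ replicate 3, where it did not pass. Of 6 fetal growth genes Hmga1 rose (16.7%, against 12.7% of all genes), and Igf2bp1 (-1.28 ± 0.41) and Lin28a fell (33.3%, against 17.4%). Lin28a had 1 count in GFP+ libraries and 12 in bulk libraries, a bulk over GFP+ ratio of 12.1 (95% counting interval 1.79 to 517). Neither gene passed without GFP+ replicates 1 or 3 or bulk replicates 1 or 3, where the change of Igf2bp1 was -1.27 to -1.06, nor with length-scaled counts (-0.67 for Igf2bp1), nor Lin28a with no filter. Hmga2 had 456, 445 and 580 CPM in GFP+ myoblasts and 313, 359 and 206 CPM in bulk myoblasts (adjusted p = 0.17). Igf2bp2 had 106, 104 and 124 CPM in GFP+ myoblasts and 88.3, 88.2 and 77.6 CPM in bulk myoblasts, and Igf2bp3 had 15.1, 15.4 and 24.8 CPM in GFP+ myoblasts and 12.1, 8.61 and 12.4 CPM in bulk myoblasts. Hmga2 (0.73) and Igf2bp2 (0.36) passed in the 6 libraries alone.

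Among bHLH inhibitors and repressors 5 of 14 fell (35.7%, against 17.4% of all genes) and 1 rose (7.14%, against 12.7%), and 3 fell without GFP+ replicate 3. Hdac9, a class II deacetylase that represses MEF2 in muscle, had 1.02, 1.13 and 0.378 CPM in GFP+ myoblasts, against 8.52, 5.71 and 9.43 CPM in bulk myoblasts (-3.19 ± 0.36). Bhlhe40 fell by 2.66 ± 0.50 (3.25 without GFP+ replicate 3) and Zeb1 by 1.49 ± 0.21. Snai2, which encodes the repressor Slug of undifferentiated myoblasts, rose to 65.5, 69.2 and 77.7 CPM in GFP+ myoblasts, against 33.0, 42.9 and 28.8 CPM in bulk myoblasts (1.02 ± 0.25). Id1, which encodes an inhibitor of bHLH factors, had 123, 136 and 122 CPM in GFP+ myoblasts and 95, 118 and 92.4 CPM in bulk myoblasts (0.32 ± 0.40, adjusted p = 0.58).

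Col1a1, the chief chain of type I collagen, had 0.652, 0.528 and 0.520 CPM in GFP+ myoblasts, against 7.49, 21.7 and 112 CPM in bulk myoblasts. The change of -6.35 ± 2.09 passed (adjusted p = 0.0352) and did not pass without any one GFP+ library (-6.47 to -6.30) or without bulk replicate 3 (-4.66). Col1a2 had 1.96, 5.05 and 2.98 CPM in GFP+ myoblasts and 22.7, 40.9 and 92.3 CPM in bulk myoblasts (-3.97 ± 0.95, or -3.25 without bulk replicate 3). Both chains were highest in bulk replicate 3 and low in all sorted libraries. Col15a1, a basement membrane collagen, changed by -3.87 ± 1.06 (-2.83 without bulk replicate 3 and -3.46 without GFP+ replicate 3, where it did not pass, and -4.77 without GFP+ replicate 1), and did not pass with length-scaled counts (-2.43). Lamb2, a laminin chain, fell by 0.83 ± 0.20. Of 31 collagen and basement membrane genes 6 fell (19.4%, near the 17.4% of all genes), and 2 fell without GFP+ replicate 3 or bulk replicate 3. Of 22 proteases and inhibitors 7 fell (31.8%, against 17.4% of all genes), and 3 or 4 fell without GFP+ replicate 3 or bulk replicate 3. As rises 0 passed in edgeR, with 1 at an unadjusted p under 0.05, and 1 passed in DESeq2. Timp3, a protease inhibitor (-3.07 ± 0.99), Loxl2, a collagen cross-linker (-3.42 ± 1.14), and Adamtsl1 (-3.67 ± 1.00) came to -2.31, -2.09 and -2.57 without bulk replicate 3. Ctsk, which encodes the protease cathepsin K (-3.20 ± 1.12), came to -2.42. None of the 4 passed without bulk replicate 3 or GFP+ replicate 3, nor Adamtsl1 with length-scaled counts (-2.36), nor Timp3, Loxl2 and Ctsk with the replicate number as a block (-2.80 for Timp3 and -2.84 for Ctsk). Timp3 and Loxl2 did not pass without GFP+ replicate 2, nor Loxl2 and Ctsk without GFP+ replicate 1, nor Ctsk without GFP+ replicate 2 or bulk replicate 2. Without GFP+ replicate 1 Timp3 came to -3.73 and Ctsk to -3.94.

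Of 22 integrin and focal adhesion genes 8 fell (36.4%, against 17.4% of all genes) and 14 did not pass. As rises 0 passed in edgeR, with 2 at an unadjusted p under 0.05, and 2 passed in DESeq2. Itga4, the alpha4 integrin that binds VCAM1 and fibronectin, had 5.87, 8.48 and 9.04 CPM in GFP+ myoblasts, against 210, 158 and 130 CPM in bulk myoblasts (-4.42 ± 0.45, adjusted p = 1.07e-05). It averaged 58.0 ± 15.6 CPM in differentiated myoblasts (SD, n = 3). Pxn, which encodes paxillin, had 211, 208 and 146 CPM in GFP+ myoblasts and 472, 490 and 578 CPM in bulk myoblasts (-1.45 ± 0.16). Itga9 fell by 2.24 ± 0.43 and Itga10 by 1.8 ± 0.36. Among 17 smooth muscle and contractile cytoskeleton genes 4 fell (23.5%, against 17.4% of all genes) and 4 rose (23.5%, against 12.7%). Acta2, smooth muscle alpha-actin, which early differentiating myoblasts also use, had 461, 459 and 182 CPM in GFP+ myoblasts and 898, 867 and 1230 CPM in bulk myoblasts (-1.45 ± 0.37). Mylk, the smooth muscle myosin light chain kinase, fell by 2.42 ± 0.31 and Smtn, which encodes smoothelin, by 1.36 ± 0.18. The rises, which include Actb and Actg1, numbered 2 without GFP+ replicates 2 or 3 or bulk replicate 1, and 1 without bulk replicate 3.

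Of 27 genes known to respond to dissociation and sorting 2 rose and 2 fell (7.41% each, against 12.7% and 17.4% of all genes), with a median of 0.03. Atf3, a stress-induced factor, had 0.683, 0.754 and 0.568 CPM in GFP+ myoblasts, against 7.79, 5.42 and 7.36 CPM in bulk myoblasts (-3.34 ± 0.27, adjusted p = 1.08e-06). Egr3, an immediate early gene, fell by 1.95 ± 0.51, or by 1.52 without bulk replicate 3, where it did not pass. Myc rose by 0.69 ± 0.16, and Dnajb1, a heat shock cochaperone, rose by 0.52 ± 0.15 but did not pass without GFP+ replicate 3 (0.38), bulk replicate 1 (0.48) or bulk replicate 3 (0.52). Of 22 ATF4 and unfolded protein response genes 7 fell (31.8%, against 17.4% of all genes) and 15 did not pass. As rises 0 passed in edgeR, with 1 at an unadjusted p under 0.05, and 1 passed in DESeq2. Herpud1, part of the degradation system of the endoplasmic reticulum, had 32.5, 35.2 and 37.6 CPM in GFP+ myoblasts and 117, 100 and 131 CPM in bulk myoblasts (-1.72 ± 0.14). Slc7a5, an amino acid transporter, fell by 0.98 ± 0.15, and Vldlr, a lipoprotein receptor, by 3.22 ± 0.39.

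Of 15 tested interferon-stimulated genes 1 rose and 1 fell (6.67% each, against 12.7% and 17.4% of all genes), and 2 fell without GFP+ replicates 1 or 3. Mx2 had 0 counts in GFP+ libraries and 28 in bulk libraries, at least 9.40-fold lower in GFP+ myoblasts with 3 counts over the group as the limit. Of 21 cytokines and chemokines Cxcl12 rose and 4 fell, among them Il33, an alarmin, with 1.24, 5.05 and 2.27 CPM in GFP+ myoblasts and 16.7, 15.1 and 21.4 CPM in bulk myoblasts (-2.64 ± 0.77, or -3.35 without GFP+ replicate 2). Il33 did not pass without GFP+ replicates 1 or 3 or bulk replicate 3 (-2.50 to -2.27), and the count of falls was 1 or 2 without any single library but bulk replicate 2. Of 11 tested genes on a list of senescence-linked secreted and nuclear genes 4 rose (36.4%, against 12.7% of all genes) and 7 did not pass. The list was not split by the direction in which senescence moves each gene, so these counts do not measure senescence. Hmgb2, a chromatin protein, had 135, 113 and 181 CPM in GFP+ myoblasts and 64.3, 62.0 and 59.0 CPM in bulk myoblasts (1.21 ± 0.22). Lmnb1, which encodes lamin B1, rose by 0.99 ± 0.22, Hmgb1 by 0.80 ± 0.15 and Trp53, which encodes p53, by 0.80 ± 0.13.

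Markers of other cells of muscle were mixed, some at or near 0 in both groups and others well above it. The 16 fibroblast and fibro-adipogenic progenitor markers summed to 750 to 1100 CPM in GFP+ myoblasts and 837 to 1010 CPM in bulk myoblasts, Lum had 0 counts in all 6 libraries, and Dcn, Dpt, Pi16, Clec3b and Apod stayed under 1 CPM. Of the 13 tested 2 fell (15.4%, near the 17.4% of all genes), Col1a1 and Mfap5. Mfap5, a microfibril protein, had 1 count in GFP+ libraries and 52 in bulk libraries (bulk over GFP+ ratio 52.4, 95% counting interval 8.99 to 2110). The count of falls was 1 without any single GFP+ library and 0 without bulk replicate 3. The 12 macrophage and leukocyte markers summed to 3.40 to 3.83 CPM in GFP+ myoblasts and 5.39 to 6.94 CPM in bulk myoblasts, with Tyrobp, C1qa and C1qb at 0 in all 6 libraries and Ptprc under 1 CPM. Of the 4 tested 1 fell, Itgam, an integrin of myeloid cells. It had 0.0310, 0.113 and 0.0473 CPM in GFP+ myoblasts and 2.66, 2.00 and 4.02 CPM in bulk myoblasts (-5.41 ± 0.51, or -6.07 without GFP+ replicate 2). Cd14 lay higher in every sorted library, at 1.02, 0.905 and 1.56 CPM, against 0.466, 0.619 and 0.32 CPM in bulk myoblasts. Its change of 1.31 ± 0.69 did not pass (adjusted p = 0.167), but it passed in the 6 libraries alone (1.28). Cd68 (-0.18) and Fcer1g (-0.62) did not pass. The 12 endothelial markers summed to 8.57 to 26.3 CPM in GFP+ myoblasts and 20.6 to 25.6 CPM in bulk myoblasts, with Cdh5, Kdr, Flt1 and Tie1 under 1 CPM. Of the 7 tested 2 fell (28.6%, against 17.4% of all genes), Cdh5 and Vwf. Vwf, which encodes von Willebrand factor, had 1.49, 1.36 and 2.65 CPM in GFP+ myoblasts and 6.33, 5.33 and 9.07 CPM in bulk myoblasts (-1.93 ± 0.33). Eng, which encodes endoglin, had 15.8, 20.6 and 2.18 CPM in GFP+ myoblasts and 10.5, 16.2 and 6.05 CPM in bulk myoblasts, groups that overlapped.

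The 11 Schwann cell and glia markers summed to 41.8 to 53.9 CPM in GFP+ myoblasts and 185 to 321 CPM in bulk myoblasts. Erbb3 made up most of the bulk sum. Of the 6 tested 2 fell (33.3%, against 17.4% of all genes), Erbb3 and Ngfr. Changes above 0 were those of Pmp22 and Mbp, which did not pass. Pmp22 had 28.8, 23.4 and 24.7 CPM in GFP+ myoblasts and 16.0, 13.3 and 20.8 CPM in bulk myoblasts (adjusted p = 0.101). Mbp had 13.5, 12.4 and 4.16 CPM in GFP+ myoblasts and 6.19, 6.14 and 3.98 CPM in bulk myoblasts (adjusted p = 0.198). S100b had 0 counts in all 6 libraries and Sox10, Cdh19, Gfap and Foxd3 stayed under 1 CPM. Erbb3, a neuregulin receptor on that list, had 9.53, 11.8 and 11.4 CPM in GFP+ myoblasts, against 220, 161 and 291 CPM in bulk myoblasts (-4.36 ± 0.27, adjusted p = 1.17e-07). It averaged 527 ± 20.1 CPM in differentiated myoblasts (SD, n = 3). Abcc9, a sulfonylurea receptor that is on the pericyte list and is also a channel subunit of muscle fibres, had 1.71, 1.24 and 1.51 CPM in GFP+ myoblasts and 91.0, 59.4 and 94.4 CPM in bulk myoblasts (-5.77 ± 0.30), and 226 ± 40.9 CPM in differentiated myoblasts. Both were far lower in every sorted library. The 12 pericyte and smooth muscle markers summed to 1150 to 2050 CPM in GFP+ myoblasts and 3550 to 4230 CPM in bulk myoblasts. Des, which encodes the desmin of muscle cells as well, made up most of that sum. It had 1150, 1178 and 691 CPM in GFP+ myoblasts and 2295, 2106 and 2437 CPM in bulk myoblasts (-1.18 ± 0.19). Cspg4, the pericyte proteoglycan NG2, had 13.9, 8.82 and 5.54 CPM in GFP+ myoblasts and 25.5, 19.6 and 33.0 CPM in bulk myoblasts (-1.46 ± 0.51, adjusted p = 0.0455). Over 15 alternatives its change ran from -1.85 to -1.19 and its adjusted p from 0.0158 to 0.153, so it did not pass in all of them. Of the 11 tested 5 fell (45.5%, against 17.4% of all genes), or 3 without GFP+ replicate 3, bulk replicate 1 or bulk replicate 3. Kcnj8, Myh11 and Cnn1 stayed under 1 CPM. The 10 tenocyte markers summed to 504 to 816 CPM in GFP+ myoblasts and 752 to 898 CPM in bulk myoblasts. Of 5 tested 1 fell and 1 rose (20.0% each, against 17.4% and 12.7% of all genes). Scx, a tendon bHLH factor, fell to 21.6, 22.4 and 18.3 CPM in GFP+ myoblasts, against 47.4, 43.2 and 62.9 CPM in bulk myoblasts (-1.30 ± 0.20), and Mkx rose by 1.31 ± 0.44, which did not pass without any single library except GFP+ replicate 3 (1.20 to 1.41). The 10 adipocyte markers summed to 18.1 to 37.2 CPM in GFP+ myoblasts and 26.8 to 27.5 CPM in bulk myoblasts. Of 3 tested 0 passed in edgeR, with 1 at an unadjusted p under 0.05 and 0 in DESeq2, and Adipoq, Fabp4 and Plin1 were under 1 CPM. The part of other cells in the differences was not tested beyond these levels.

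The same gate was applied to the MPC cultures, with other libraries in both arms, and allowed a test of whether sorting made the same difference in both cultures. The contrast of the myoblast and MPC sort differences passed for 5755 genes (37.1%), of which 2606 (16.8%) were higher and 3149 (20.3%) lower in myoblasts. The GFP+ MPC differed from bulk MPC in 10350 genes, 5118 higher (32.9%) and 5232 lower (33.7%). Called in both cultures were 1702 genes that rose in both, 2249 that fell in both and 123 that moved in opposite directions. Sorted and bulk myoblasts differed in passage, whereas both MPC groups carry the same label of 5 to 6 passages in their medium, and the RNA kits differed in both cultures.

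For Myh3, Myog and Ckm the difference between the cultures did not pass. Myh3 changed by -6.71 ± 0.36 in myoblasts and by -6.16 ± 0.35 in MPC cultures, and the difference of -0.55 ± 0.40 did not pass (adjusted p = 0.301). For Myog the changes were -3.54 ± 0.47 in myoblasts and -3.19 ± 0.46 in MPC cultures, with a difference of -0.35 ± 0.60 (adjusted p = 0.681), and for Ckm the difference was -1.29 ± 0.78 (adjusted p = 0.214). Of 19 thick filament genes 2 were higher and 2 lower in the myoblast contrast, while of 20 thin filament genes 6 were higher and 2 lower, and of 25 Z-disc and M-band genes 11 were higher and 1 lower, against 16.8% and 20.3% of all genes. All 32 mitosis genes and 30 of 32 replication genes were lower in the myoblast contrast than in the MPC contrast, against 20.3% of all genes. Mki67 changed by 0.80 ± 0.38 in myoblasts and by 3.12 ± 0.41 in MPC cultures (difference -2.32 ± 0.54, adjusted p = 0.00472). Of 17 Notch genes 11 were also lower in the myoblast contrast, and of 28 stem cell markers 14.

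**Figure D5:**
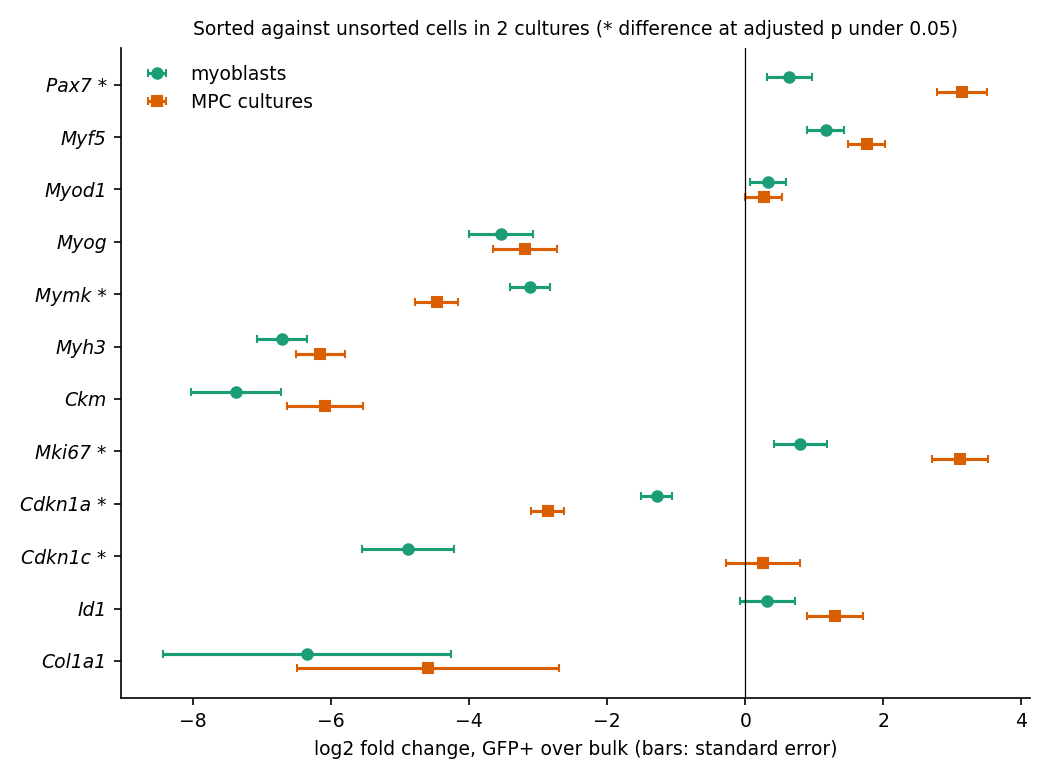
Log2 fold change of sorted over unsorted cells for 12 marker genes, in myoblasts (green circles) and MPC cultures (orange squares), with standard errors as bars. Asterisks mark the 5 genes (41.7%, against 37.1% of all genes), Pax7, Mymk, Mki67, Cdkn1a and Cdkn1c, whose difference between the cultures passed an adjusted p of 0.05.

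Pax7 was among the genes whose difference passed. It changed by 0.64 ± 0.33 in myoblasts and by 3.14 ± 0.36 in MPC cultures (difference -2.50 ± 0.47, adjusted p = 0.00131). GFP+ myoblasts averaged 897 ± 91.6 CPM and bulk myoblasts 575 ± 69.4 CPM, while GFP+ MPC averaged 762 ± 147 CPM and bulk MPC 86.5 ± 43.5 CPM (SD, n = 3 each). Myf5 changed by 1.17 ± 0.27 and 1.76 ± 0.27 in myoblasts and MPC cultures (difference -0.59 ± 0.37, adjusted p = 0.232), and Myod1 by 0.33 ± 0.27 and 0.27 ± 0.27 (difference 0.06 ± 0.38, adjusted p = 0.918).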

How the data were processed

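Per the labels, poly(A)-selected stranded libraries were read single-end. Reads were trimmed with fastp 0.20.0 and transcripts quantified with kallisto 0.46.1 on GRCm39, per the submitters' processing notes, though the role of each tool is not stated there. The authors deposited an estimated count, a TPM and 2 transcript lengths per transcript and library, and how strand was set is not given in the sources used here. Estimated counts of 120739 of 121798 transcripts were summed to 35613 genes with GENCODE M21 names and rounded. The 1059 transcripts without a match held 0.478% to 0.696% of the counts of the 6 libraries. The deposited TPM and effective length served in 1 alternative, counts scaled by average length.

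Libraries were grouped by their titles. One fit in edgeR 4.0.16 (limma 3.58.1, R 4.3.3) over 15 libraries in 5 groups used TMM factors, filterByExpr with a minimum count of 10 and a minimum total of 15, and the quasi-likelihood test, with Benjamini-Hochberg adjustment over all 15533 genes and a threshold of 0.05. A further contrast tested the sort difference in myoblasts minus that in MPC cultures. The steps were tested on simulated data. The library from high-passage cells was left out because it has no replicate. Library totals of 19300000 to 29130000 estimated counts in the 6 libraries limit the precision of low genes. Ratios and bounds from few counts cover counting error only. Replicates differed by more than sampling noise (chi-square per degree of freedom 10.6 to 64.1).

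Alternatives were the 6 libraries alone, 15 libraries refitted without bulk MPC replicate 2, DESeq2 1.42.0, RLE size factors, library totals, no filter, a minimum count of 50, the replicate number as a block, length-scaled counts and leaving out each library. Genes named were 12 fixed markers, up to 4 called members with the largest changes per list and up to 2 against the majority, members not called where these were 5 or fewer, and the 8 largest rises and falls on the fold and CPM scales. Members and lists were chosen with earlier results of these data known. The promoters printed and Cdk1 were picked after their values were seen. A GFP transcript and GFP-negative cells were not analysed here. Values of some list members are not reported here.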

Additional observations from a re-analysis of the deposited data

Results flagged for a closer look

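For 5 of the 12 marker genes (41.7%, near the 37.1% of all tested genes) the difference between sorted and unsorted cells was not the same in myoblasts and MPC cultures, in edgeR's quasi-likelihood test of that difference. The log2 difference of myoblasts minus MPC was -2.50 for Pax7 (standard error 0.47, adjusted p = 0.00131) and -2.32 for Mki67 (0.54, adjusted p = 0.00472). It was 1.35 for Mymk (0.38, adjusted p = 0.0138) and 1.58 for Cdkn1a (0.32, adjusted p = 0.00188), both of which fell less in myoblasts than in MPC cultures. For Cdkn1c it was -5.15 (0.84, adjusted p = 0.000494): the gene fell by 4.89 in sorted myoblasts, whereas GFP+ MPC averaged 1126 ± 477 CPM and bulk MPC 940 ± 25.8 CPM (SD, n = 3 each). By the labels, sorted and unsorted cells differed in passage among the myoblasts, and the part of passage was not tested.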

How the results depend on the processing

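No named gene had opposite signs in the main analysis and an alternative where it passed in either of them. Some that passed in neither of them did, among them Asph, at -0.03 in the main analysis and 0.08 with library totals. The count of called genes was 2719 without bulk replicate 3 and ranged from 2719 to 4110 when 1 of the 6 libraries was left out. In those fits the rises ranged from 828 to 1784 and the falls from 1891 to 2512. Scaling by library totals alone turned the balance round, with 2981 rises and 2261 falls. It moved the median log2 change over all tested genes from -0.02 to 0.09. Why the TMM factors differed between the groups was not tested. With the replicate number as a block 4404 genes were called, 1815 higher and 2589 lower. The deviations of same-numbered libraries correlated at 0.011, 0.026 and -0.012, so the block is given as an alternative. Library names that begin with the same number recur across groups, and the labels do not say whether these mark a shared parental line. The count of genes whose sort difference passed was 4836 to 7037 over its alternatives, against 5755. Low depth limits genes with few counts in GFP+ myoblasts, whose fitted folds depend on single reads.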
